A study of Mus musculus with 3 samples.

Results

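The cytosolic ribosomal proteins are the protein components of the large (60S) and small (40S) ribosomal subunits, and their mRNAs were read here in 3 RNA-seq libraries of skin mast cells. Members were chosen by gene name: 94 of the 20677 rows of the expression table carry a symbol of the Rpl or Rps series (or are Rplp0, Rplp1, Rplp2 or Rpsa), after the kinases named Rps6k were left out. Of these, 56 rows belong to the large subunit and 37 to the small subunit. The remaining row, Rps19bp1, encodes a protein that binds Rps19 and is no part of the ribosome, so it entered neither subunit; it was at 20.6 (early EMP), 14.95 (late EMP) and 16.8 (fetal HSC) FPKM. FPKM counts sequenced fragments relative to the length of the transcript and the depth of the library. The 14 rows named as copies of another gene (names ending in -ps, l or rt) were added to their parent, which left 48 large and 31 small subunit families. All 79 families, and 92 of the 94 rows, reached 1 FPKM in at least 1 library.

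The mast cells were sorted from the skin of mice of C57BL/6xCD1xFVB background 1 week after birth, and all carried the fluorescent reporter EYFP after a pulse of 4’OHT, the drug that activates an inducible Cre recombinase, given to the embryo. The early EMP library (early erythro-myeloid progenitor) came from Csf1rCre/EYFP mice pulsed at embryonic day 8.5. The late EMP library came from Runx1Cre/EYFP mice pulsed at day 8.5, and the fetal HSC library (fetal haematopoietic stem cell) from Runx1Cre/EYFP mice pulsed at day 9.5. The origin of a library thus rests on the driver and the day of the pulse, and the driver of the early EMP library differs from that of the other 2, so driver and origin cannot be told apart. Each group has 1 library and no source used here gives the number of animals behind it; no value below has a replicate error, no test between groups could be made, and no p-value is given. Values in groups of 3 follow the order early EMP, late EMP, fetal HSC unless stated otherwise.

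A ribosome holds 1 copy of nearly every ribosomal protein, so cells make these proteins in matched amounts, from some of the most abundant mRNAs they contain. Many of these mRNAs begin with a 5′ terminal oligopyrimidine (TOP) tract, a run of C and T bases through which the kinase mTORC1 and the RNA-binding protein Larp1 set how actively they are translated. Almost every ribosomal protein gene has left processed copies elsewhere in the genome, a few of which are transcribed. Mast cells are known for granules packed with proteases, which they make and store in large amounts.

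Ribosomal protein mRNA made up a small and similar share of each library. The 79 families summed to 13079 (early EMP), 15764 (late EMP) and 15025 (fetal HSC) FPKM, which is 2.05%, 2.57% and 2.35% of all FPKM. The late EMP library was highest and the early EMP library lowest, so that late EMP exceeded early EMP by a summed ratio of 1.21 and fetal HSC exceeded early EMP by 1.15. Fetal HSC relative to late EMP gave 0.953. In bulk RNA, a larger share of cells with many ribosomes and more ribosomal protein mRNA per cell cannot be told apart.

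Both subunits differed between the libraries by similar amounts. Large subunit families summed to 7066, 8744 and 8387 FPKM, and small subunit families to 6013, 7020 and 6638 FPKM. The ratio of large to small was therefore 1.18, 1.25 and 1.26. The typical family was lower in the large subunit, with medians of 114, 139 and 143 FPKM against 156, 197 and 181 FPKM in the small subunit.

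**Figure D1:**
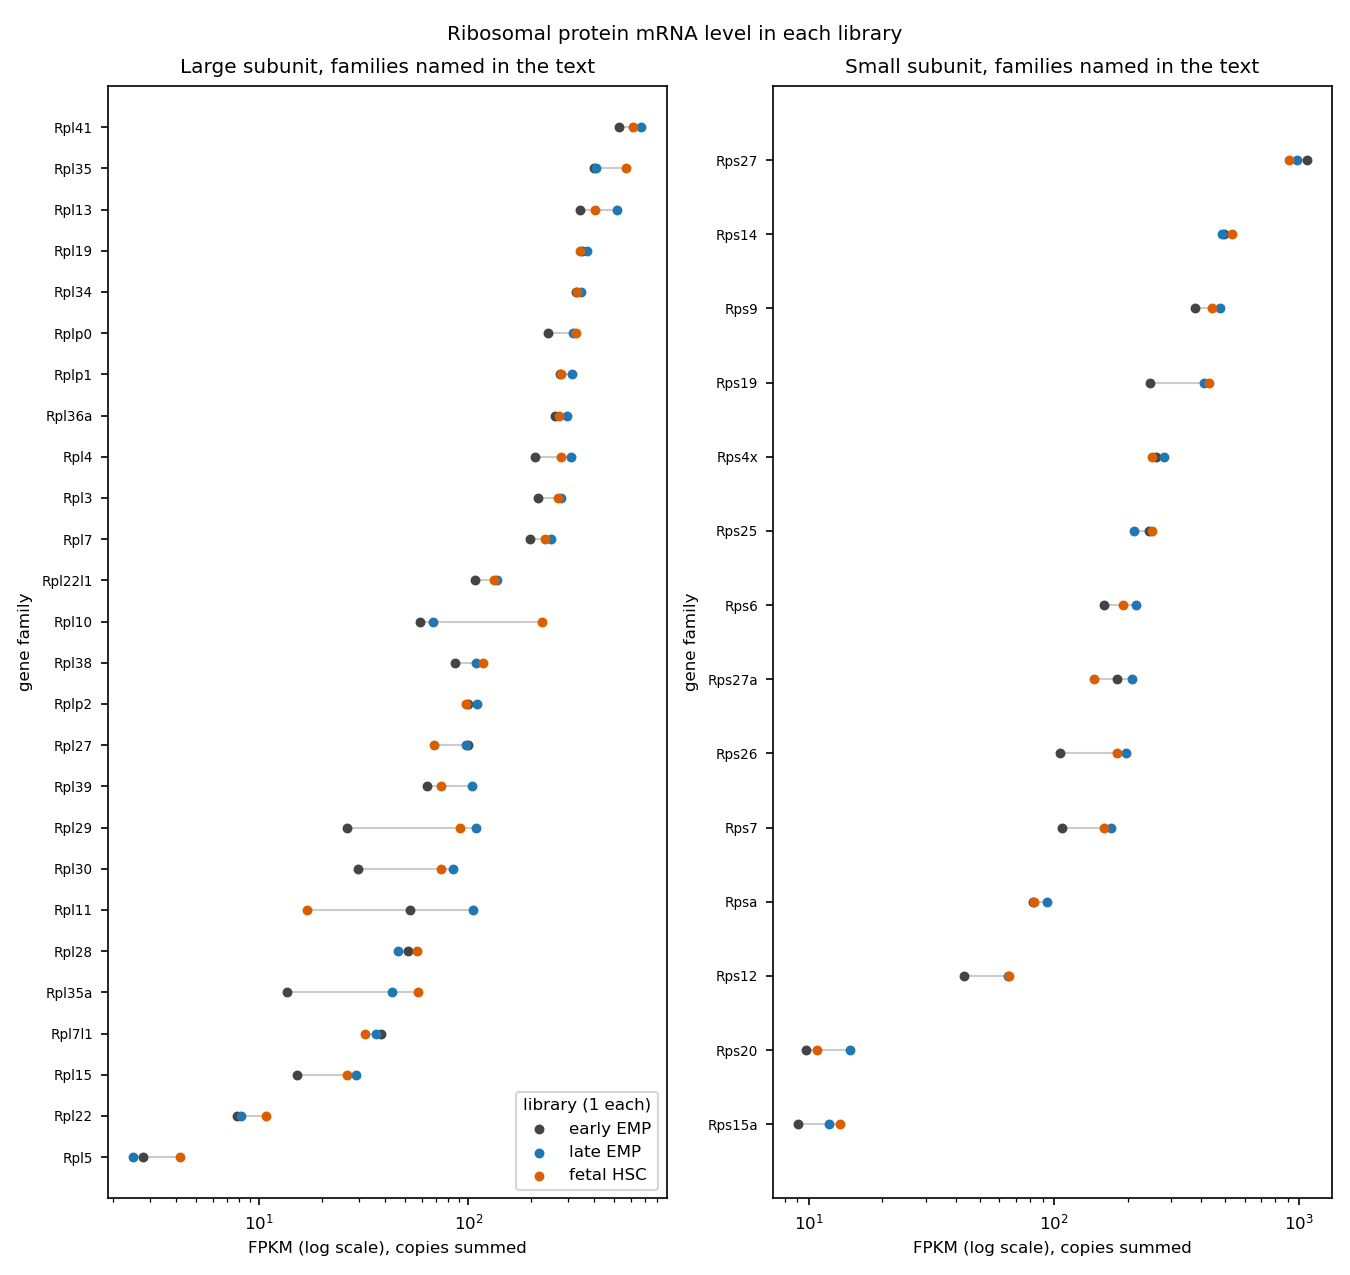
FPKM (log axis, copies summed with their parent) of the ribosomal protein families named in the text, in the 3 libraries, with large subunit families on the left and small subunit families on the right, ordered by mean; each point is 1 library and the grey line joins the lowest and the highest. Most families have their early EMP point on the left of the other 2, and Rpl10, Rpl11, Rpl29, Rpl30 and Rpl35a have the widest lines.

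The order of the families was much the same in each library. Across the 79 families, Spearman's rho of the levels was 0.976 for the 2 EMP libraries, 0.951 for fetal HSC with early EMP and 0.960 for fetal HSC with late EMP; families are not independent replicates, and all their values come from the same 3 libraries. In the large subunit the most abundant was Rpl41, which encodes one of the shortest known proteins, at 524, 671 and 612 FPKM. It was followed by Rpl35, a protein near the exit of the peptide tunnel, at 399, 409 and 569 FPKM, and by Rpl13 at 343, 515 and 404 FPKM. Rpl35 was highest in the fetal HSC library and Rpl13 in the late EMP library. Rpl19 was at 351, 369 and 340 FPKM.

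In the small subunit the Rps27 family was the most abundant of all 79, at 1075, 986 and 910 FPKM. Rps14, whose human counterpart is lost in the 5q- syndrome, was at 493, 485 and 535 FPKM, and Rps9 at 375, 478 and 444 FPKM. Rps14 differed little between the libraries, whereas Rps9 was lowest in the early EMP library. Rps19, the gene most often mutated in Diamond-Blackfan anaemia, was at 246, 412 and 430 FPKM.

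A few families lay far below the rest although a ribosome needs each of these proteins in equal number. Rpl5, which carries 5S rRNA into the large subunit together with Rpl11, was at 2.77, 2.49 and 4.18 FPKM. Rps15a with its 2 named copies was at 9.09, 12.2 and 13.5 FPKM, Rps20 at 9.73, 14.8 and 10.8 FPKM, and Rpl15 at 15.1, 29.1 and 26.2 FPKM. These are levels per length of transcript, and no source used here gives the transcript lengths behind them. The annotated transcript taken for Rpl5 here has 2045 bases for a coding part of 894, and that of Rps20 has 3706 bases for 360. Across the 79 families the level showed no clear relation to coding length, with rho of 0.06, 0.07 and 0.09 in the 3 libraries. The relation of level to the length of the whole transcript was not tested.

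Rpl22 and its paralog Rpl22l1 were the clearest case of a second gene exceeding the first. Rpl22, which developing T cells need, was at 7.83, 8.18 and 10.8 FPKM, while Rpl22l1, a paralog that can take its place in the ribosome, was at 107, 137 and 133 FPKM. Rpl22l1 was thus the more abundant of the pair per length in every library. Rpl7l1, a relative of Rpl7 that acts in ribosome assembly, was at 38.2, 36.0 and 31.9 FPKM against 198, 249 and 233 FPKM for Rpl7. The muscle paralog Rpl3l was at 0.00, 0.07 and 0.19 FPKM and the testis paralog Rpl39l at 0.29, 0.10 and 0.00 FPKM, so Rpl3 and Rpl39 carried nearly all of their families.

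Copies of ribosomal protein genes can be close enough in sequence that a read fits both, and the estimate then divides reads between rows. The coding sequences of parent and copy are therefore shown first, for 3 families whose rows behaved differently, as stretches of 120 bases from the GENCODE M21 transcripts (GRCm38), 5′ to 3′, with capitals where a copy differs from its parent. For Rps27 (chromosome 3, 90212667 to 90213648, GRCm38.p6) bases 121 to 240 of the coding sequence are given, beside its copies Rps27rt (chromosome 9, 114982366 to 114982739) and Rps27l (chromosome 9, 66944624 to 66949522).
Rps27: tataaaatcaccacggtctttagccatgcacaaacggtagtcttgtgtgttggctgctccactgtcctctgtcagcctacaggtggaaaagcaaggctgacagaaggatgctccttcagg
Rps27rt: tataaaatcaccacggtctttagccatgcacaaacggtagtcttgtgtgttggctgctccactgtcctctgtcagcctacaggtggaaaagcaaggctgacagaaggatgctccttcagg
Rps27l: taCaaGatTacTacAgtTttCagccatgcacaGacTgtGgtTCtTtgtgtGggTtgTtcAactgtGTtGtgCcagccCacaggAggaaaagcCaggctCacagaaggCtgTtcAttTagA
For Rpl34 (chromosome 3, 130726827 to 130730398) and Rpl34-ps1 (chromosome 6, 71124589 to 71125001) bases 13 to 132 are given.
Rpl34: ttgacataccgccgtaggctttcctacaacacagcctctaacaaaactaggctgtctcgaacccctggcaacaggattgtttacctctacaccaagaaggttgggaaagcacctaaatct
Rpl34-ps1: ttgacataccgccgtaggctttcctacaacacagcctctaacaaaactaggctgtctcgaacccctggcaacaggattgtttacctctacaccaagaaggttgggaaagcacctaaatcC
For Rpl36a (chromosome X) and Rpl36al (chromosome 12) bases 10 to 129 are given.
Rpl36a: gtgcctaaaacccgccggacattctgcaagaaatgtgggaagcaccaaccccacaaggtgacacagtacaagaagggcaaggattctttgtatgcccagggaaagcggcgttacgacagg
Rpl36al: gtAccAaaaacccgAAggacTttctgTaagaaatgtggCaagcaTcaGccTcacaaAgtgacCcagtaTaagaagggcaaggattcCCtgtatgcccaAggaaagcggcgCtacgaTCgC

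Rps27rt has no difference from Rps27 in this stretch and matched 100% of its coding bases, and Rpl34-ps1 has 1 difference and matched 99.4%. Rps27l has 30 differences here and matched 76.3%, and Rpl36al has 20 differences and matched 87.9%. These families were chosen because their rows behaved differently, so their values do not test whether rows follow sequence identity. Rps27 was at 933, 831 and 383 FPKM, and its identical copy Rps27rt was listed at 0 for early EMP and for late EMP, and at 369 FPKM for fetal HSC. Rps27l, a p53-responsive paralog, was at 142, 155 and 158 FPKM, nearly level across the libraries. Taken alone, Rps27 was lower in the fetal HSC than in the early EMP library by a log2 difference of -1.28, and with its copies summed the difference was -0.24.

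Rpl34 and Rpl34-ps1 also differed in opposite directions. Rpl34 was at 113, 207 and 323 FPKM and Rpl34-ps1 at 212, 139 and 7.83 FPKM, in opposite order, while their sum was 326, 347 and 331 FPKM. The log2 difference between fetal HSC and early EMP was 1.504 for the parent row alone and 0.02 for the sum. In contrast Rpl36a was at 113, 130 and 121 FPKM and the diverged Rpl36al at 148, 165 and 150 FPKM, so both rows kept the same order. Rps4l, listed as a transcribed pseudogene in RefSeq and 79.8% identical to Rps4x, was at 36.4, 16.4 and 15.5 FPKM while Rps4x was at 225, 265 and 235 FPKM. Whether the readings of identical copies reflect transcription of the copy was not tested.

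**Figure D2:**
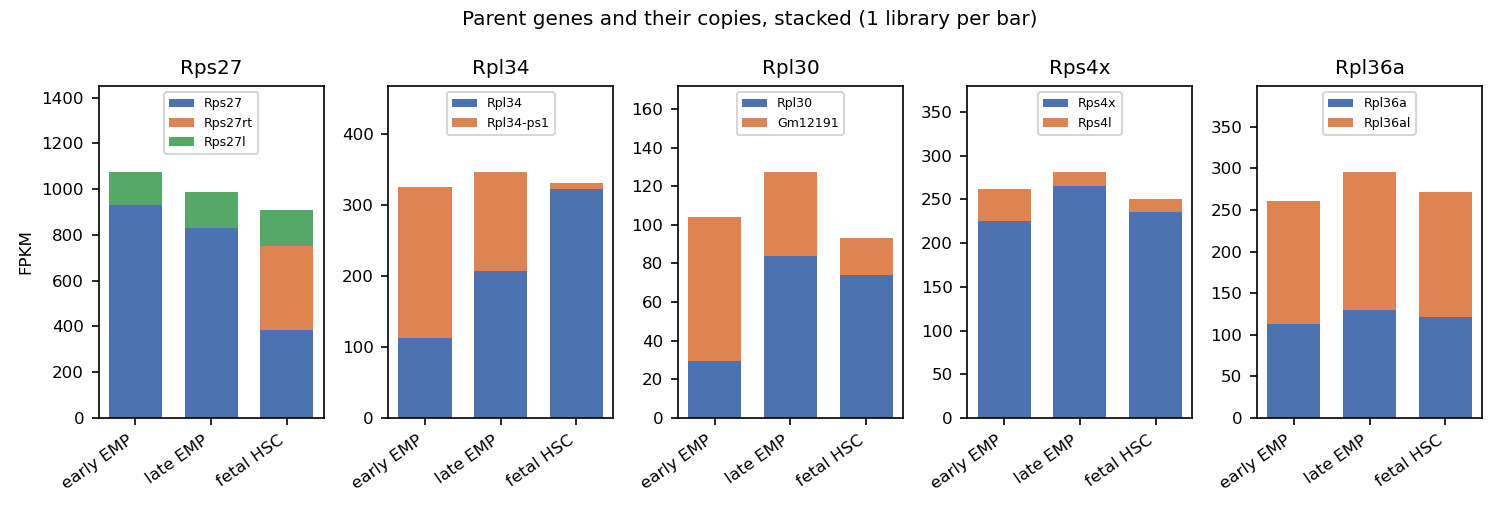
Stacked FPKM of 5 parent genes and their copies in the 3 libraries (1 bar per library, linear axis from 0). From early EMP to fetal HSC the parent's part of the Rps27, Rpl34 and Rpl30 bars differs by more than the height of the bars, whereas both parts of the Rpl36a bars keep their proportion.

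Summing by name changed few other families. Of the 12 families with a named copy, 3 had a log2 difference shifted by 0.3 or more in any comparison: Rps27, Rpl34 and Rps15a. For Rps15a, between fetal HSC and late EMP, the difference was -0.20 alone and 0.13 with Rps15a-ps4 and Rps15a-ps6 added. A search of the GENCODE transcripts with each parent's coding sequence found at least 1 other annotated gene at 90% identity over 70% of the coding bases for 77 of the 79 families, and the table lists few of those genes. One that it does list is Gm12191, which matched Rpl30 at 99.7% and carries another name. Rpl30 was at 29.7, 84.0 and 74.2 FPKM and Gm12191 at 74.5, 43.3 and 19.2 FPKM. Their sum was 104, 127 and 93.4 FPKM, so the log2 difference between late and early EMP was 1.47 for Rpl30 alone and 0.29 for the sum. This sum was chosen after the values were seen. Gm6654, which matched Rps26 at 97.4%, was at 7.55, 11.55 and 17.7 FPKM. Like Rps26 it was lowest in the early EMP library, so against early EMP not every near-identical row ran opposite to its parent. Between fetal HSC and late EMP the log2 difference was 0.58 for Gm6654 and -0.12 for Rps26.

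Between the late and early EMP libraries, ribosomal protein mRNAs were higher in the late EMP library across both subunits by a small amount. With 1 FPKM added to each value, 44 of 48 large subunit families were higher, with a median log2 difference of 0.26, and 27 of 31 small subunit families, with a median of 0.25. Among all rows at 1 FPKM or more, 49.5% were higher, and among rows with a symbol that reached 50 FPKM in 1 library, the members included, 56% were. The medians over these rows were 0.00 and 0.06. Only 3 families, all of the large subunit, were at least 2-fold apart, against 19.4% of all rows and 6.04% of those at 50 FPKM.

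The 3 were Rpl29, Rpl35a and Rpl30. Rpl29, a protein of the large subunit that mice can live without, was at 26.2, 108 and 91.5 FPKM, a log2 difference of 2.01. Rpl35a, mutated in some patients with Diamond-Blackfan anaemia, was at 13.6, 43.1 and 57.7 FPKM, a difference of 1.60. In both, the early EMP library stood apart from the other 2. The transcript search described above matched 59 other annotated genes to Rpl29 and 22 to Rpl35a. Of these, the rows with a symbol include 2 for Rpl29 and 0 for Rpl35a. Summed with its matched rows, Rpl29 had a log2 difference of 1.97 between late and early EMP. Rows without a symbol could not be searched, so a division of Rpl29 or Rpl35a reads with such a row was not tested. Rpl30 was beyond 2-fold as a row and not when summed with Gm12191, as described above. Rpl11, which with Rpl5 binds and restrains Mdm2 when ribosome assembly is disturbed, was at 52.3, 105 and 17.0 FPKM, with a difference of 0.99 between late and early EMP.

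The largest differences in the small subunit were those of Rps26 at 106, 197 and 181 FPKM (log2 0.89), Rps19 (0.74), Rps7 at 108, 172 and 160 FPKM (0.67) and Rps12 at 43.2, 65.1 and 65.9 FPKM (0.58). Rps26 lies at the channel where mRNA leaves the small subunit. In each of these 4 the early EMP library was lowest and the other 2 lay close together. Families lower in the late EMP library were few, among them Rps25, which internal ribosome entry sites depend on, at 244, 212 and 252 FPKM (-0.20), the Rps27 family (-0.12), Rps14 (-0.02), Rpl28 at 51.3, 46.2 and 56.6 FPKM (-0.15), Rpl5 (-0.11), Rpl7l1 (-0.08) and Rpl27 (-0.02).

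Between the fetal HSC and early EMP libraries the picture was similar but more uneven. The early EMP library is in both comparisons, so they are not independent. Higher in the fetal HSC library were 41 of 48 large subunit families, with a median of 0.23, and 23 of 31 small subunit families, with a median of 0.15. Of all rows 41.8% were higher, and of those at 50 FPKM 57%. At least 2-fold apart were 5 families, against 26.0% of all rows and 8.99% of those at 50 FPKM. Of the 5, Rpl35a (2.01), Rpl10 (1.93), Rpl29 (1.77) and Rpl30 (1.29) were higher and Rpl11 (-1.57) was lower. Summed with Gm12191, the Rpl30 difference turned to -0.16.

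Rpl10, which is among the last proteins to join the large subunit and helps shape the site that holds the growing peptide, was at 58.6, 67.7 and 226 FPKM. Rpl10 and Rpl11 were therefore the 2 families in which the fetal HSC library was more than 2-fold from both EMP libraries, in opposite directions. None of the other rows whose symbol has a GENCODE transcript matched either at 90% identity, while 11 and 9 other annotated genes did. The 3064 rows without a symbol could not be searched, so a division of Rpl10 or Rpl11 reads with such a row was not tested. In the small subunit Rps19 (0.80) and Rps26 (0.77) had the largest differences, followed by Rps12 (0.60) and Rps7 (0.57). Among the lowest were Rps27a, which is made as a fusion with ubiquitin, at 181, 208 and 145 FPKM (-0.31), and in the large subunit Rpl27 at 99.5, 97.7 and 68.6 FPKM (-0.53) and Rpl7l1 (-0.25).

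Between the fetal HSC and late EMP libraries, both made with Runx1-driven Cre, ribosomal protein mRNAs were slightly lower in fetal HSC in the deposited FPKM, and the direction depended on the scaling. Lower in the fetal HSC library were 33 of 48 large subunit families, with a median of -0.13, and 21 of 31 small subunit families, with a median of -0.12. Of all rows 58.0% were lower, with a median of -0.10, and of those at 50 FPKM 47.7%, with a median of 0.02. With median-of-ratios scaling, which moved the median of all rows to 0.00, the medians turned to 0.01 and 0.02, so no direction is drawn for this comparison. At least 2-fold apart were 2 families, Rpl10 (1.73) and Rpl11 (-2.56), against 11.7% of all rows and 3.34% of those at 50 FPKM. Among the others the differences ran from -0.52 for Rps27a to 0.57 for Rpl5.

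**Figure D3:**
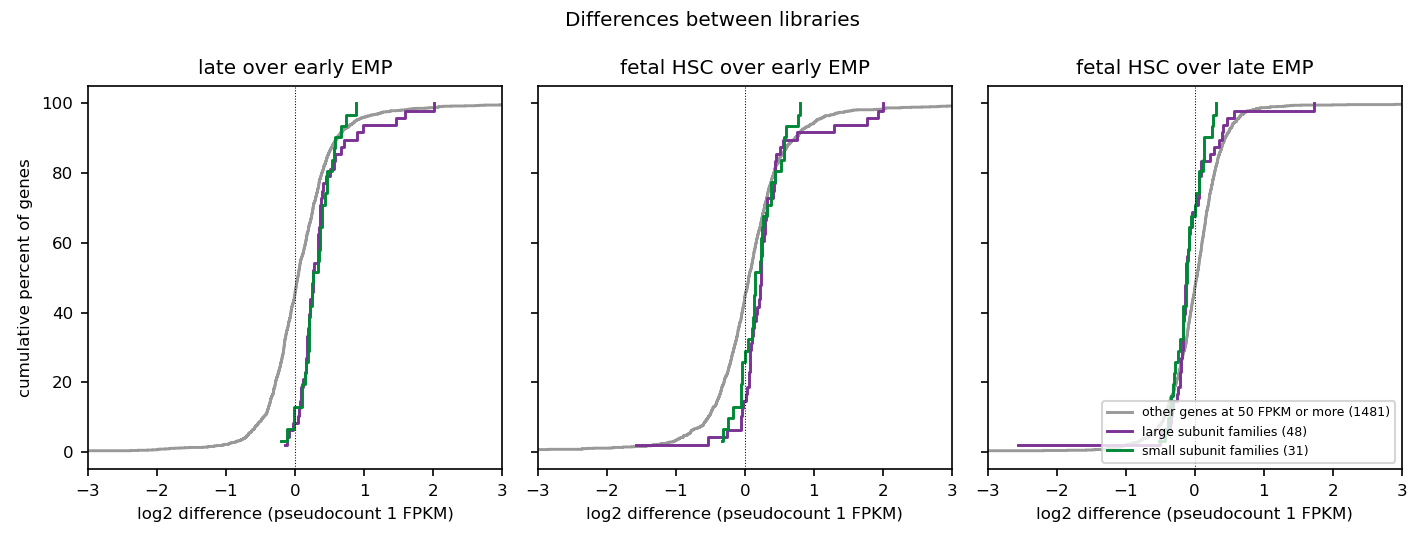
Cumulative distribution of the log2 difference between libraries (x axis, 1 FPKM added) for large subunit families, small subunit families and the other genes with a symbol at 50 FPKM or more, in percent of genes (y axis), 1 panel per comparison. In both comparisons with early EMP the curves of the families lie to the right of the other genes and have short tails, and between fetal HSC and late EMP they lie slightly to the left.

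Read over the 3 libraries together, the early EMP library was the lowest in 60 of the 79 families, 39 of 48 in the large and 21 of 31 in the small subunit. Among rows with a symbol at 50 FPKM or more, 43.4% had their lowest value there. The late EMP library was the highest in 50 families and the fetal HSC library in 25, against 32.3% and 37.3% of the rows at 50 FPKM. That tally rests on the order of fetal HSC and late EMP, which turned under median-of-ratios scaling, where 44 of 79 families were higher in fetal HSC. In the remaining 4 the early EMP library was the highest, among them Rpl27, Rpl7l1 and Rps27.

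The stalk proteins, which recruit translation factors to the large subunit, did not all differ alike. Rplp0, the base of the stalk, was at 241, 317 and 328 FPKM, Rplp1 at 273, 313 and 278.9 FPKM and Rplp2 at 99.99, 110 and 97.9 FPKM. Rplp0 was lowest in the early EMP library, while Rplp1 and Rplp2 were nearly equal there and in the fetal HSC library. Rps6, the substrate of the S6 kinases, was at 160, 216 and 192 FPKM. Rpsa, also known as the laminin receptor precursor, was at 82.6, 93.8 and 83.1 FPKM, and Rpl38, which favours translation of a set of Hox mRNAs, was at 86.5, 109 and 117 FPKM.

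On the X chromosome lie 4 families, Rpl10, Rpl36a, Rpl39 and Rps4x, which were read apart because sex-linked RNA differed between the libraries. Xist, transcribed from the inactive X, was at 25.6, 0.53 and 52.0 FPKM, and the Y-linked Ddx3y at 20.7, 38.5 and 0.32 FPKM. All 4 were higher in the late EMP than in the early EMP library, with a median log2 difference of 0.19. Of all 79 families, 71 were higher in that comparison. Xist and Ddx3y differed most between fetal HSC and late EMP. There 3 of the 4 families were lower in fetal HSC in the deposited FPKM, and Rpl10 was higher by 1.73. Rpl39, which lines the peptide tunnel, was at 63.4, 104 and 74.0 FPKM, and the sum of Rps4x and Rps4l at 261, 281 and 251 FPKM. The sex of the animals and the origin cannot be told apart in these libraries, and the part of sex in the values of the 4 families was not tested.

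Fau and Rack1, components of the cytosolic ribosome without a ribosomal protein symbol, were read beside the members. Fau, a fusion whose ribosomal part is protein S30 of the small subunit, was at 421, 443 and 405 FPKM, and Rack1, a signalling scaffold on the small subunit, at 123, 145 and 139 FPKM. Both lay within 2-fold throughout.

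Start sites of the genes were examined because most families differed in one direction and TOP tracts are defined at the first base of the mRNA. The sequences below run from 30 bases before the annotated start to 30 bases from it on (RefSeq, GRCm38.p6, most upstream listed start), 5′ to 3′, with the longest run of C and T that begins with C in capitals. Rps26, Rps6, Rpl4 and Rpl35 were higher in the late EMP library than in the early EMP library, the last by only 0.04; Rps27, Rps25 and Rpl28 were not.
Rps26 (chr10:128626477-128626536, minus strand): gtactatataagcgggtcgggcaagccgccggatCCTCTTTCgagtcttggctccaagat
Rps6 (chr4:86857338-86857397, minus strand): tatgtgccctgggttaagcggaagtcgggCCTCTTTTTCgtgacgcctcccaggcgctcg
Rpl4 (chr9:64173357-64173416, plus strand): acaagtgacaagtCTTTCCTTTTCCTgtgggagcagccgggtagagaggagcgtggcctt
Rpl35 (chr2:39005102-39005161, minus strand): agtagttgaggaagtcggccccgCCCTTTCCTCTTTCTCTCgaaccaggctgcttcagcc
Rps27 (chr3:90213619-90213678, minus strand): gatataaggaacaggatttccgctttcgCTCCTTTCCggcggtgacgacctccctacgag
Rps25 (chr9:44407684-44407743, plus strand): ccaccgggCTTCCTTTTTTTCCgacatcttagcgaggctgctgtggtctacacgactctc
Rpl28 (chr7:4792935-4792994, plus strand): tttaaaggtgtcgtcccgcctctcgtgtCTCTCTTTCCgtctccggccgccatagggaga

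The run spans 8 bases in Rps26, 10 in Rps6, 13 in Rpl4, 18 in Rpl35, 9 in Rps27, 14 in Rps25 and 10 in Rpl28. It was present in families on both sides of the comparison, but all starts printed had a run of at least 8 bases. Others had shorter runs, such as 3 bases in Rpl24 and 4 in Rps4x. Presence on both sides was therefore set by which starts were printed. In Rpl4 and Rps25 the run ends before the annotated start. Promoter windows of 300 bases were available for 59 of the 79 parents. A C followed by 7 or more C or T bases, on the sense strand within 50 bases of the start, was found in 46 of the 59 (78.0%), in 28.7% of all 27025 promoters and in 25.6% of those of other genes at 50 FPKM or more. Within 10 bases of the start, closer to where a TOP tract lies, it was found in 21 of the 59 (35.6%), against 7.75% and 8.35%. The hexamer CTTTCC, which can overlap such a run, was found within 50 bases of the start in 15 (25.4%), against 4.67% of all promoters and 3.93% of those of other abundant genes. Of motifs read on both strands over the whole window, CCGGAAG, the core bound by ETS factors, was found in 23 (39.0%), against 9.14% of all promoters and 22.6% of those of other genes at 50 FPKM or more. AAGATGGC, which resembles a YY1 site, was found in 6 (10.2%), against 2.87% and 5.35%. The E-box CACGTG, bound by Myc and related factors, was found in 5 (8.47%), against 7.24% and 11.9%, so its share lay below that of the other abundant genes. TATAAA in the 50 bases before the start was found in 1 (1.69%), against 2.88% and 2.76%. The 46 families with the pyrimidine run had a median log2 difference between late and early EMP of 0.30, and the 13 without it 0.18. Between fetal HSC and early EMP the medians were 0.24 and 0.10. A gap between late and early EMP was not particular to this run. The 23 families with CCGGAAG had a median of 0.33 there and the 36 without it 0.23. Between fetal HSC and early EMP these medians were 0.22 and 0.24. These are descriptions of sequence matches, and annotated starts can lie some way from the start used in mast cells.

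Other genes with TOP mRNAs were read from a list of 17 translation-related genes. Higher in the late EMP than in the early EMP library were 14 of 17, with a median of 0.31, and 13 of 17 were higher in the fetal HSC than in the early EMP library, with a median of 0.29. None was 2-fold apart. Over the scalings tried, the counts ran from 11 to 14 and from 12 to 15. The medians ran from 0.26 to 0.37 and from 0.25 to 0.37. Of rows with a symbol at 50 FPKM or more, 56% and 57% were higher in the deposited FPKM. Eef1a1, which brings aminoacyl-tRNA to the ribosome, was at 947, 1098 and 950.5 FPKM, the highest of the list. The elongation factor subunit Eef1g was at 54.1, 96.6 and 93.2 FPKM and Eef1d at 28.5, 46.2 and 42.1 FPKM, both lowest in the early EMP library. Hnrnpa1, a splicing regulator, was at 74.1, 108 and 128 FPKM and Vim, vimentin, at 322, 444 and 499 FPKM. Gas5, a noncoding RNA with a TOP tract that hosts small nucleolar RNAs, was at 132, 166 and 145 FPKM. Of the 6 such host genes, 5 were higher in the late EMP than in the early EMP library, and 4 to 5 over the scalings tried.

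The lists of genes that build ribosomes gave different counts. Of 24 genes of pre-rRNA processing and small nucleolar particles, 20 were higher in the late EMP than in the early EMP library, with a median of 0.30, and 16 in the fetal HSC than in the early EMP library, with a median of 0.26. Of all rows at 1 FPKM or more, 49.5% and 41.8% were higher in these comparisons. Among rows with a symbol at 50 FPKM or more, 56% and 57% were. Npm1, nucleophosmin, was at 96.4, 168 and 145 FPKM, Nop58 at 18.6, 34.0 and 29.2 FPKM and Dkc1, the pseudouridine synthase dyskerin, at 8.40, 16.6 and 21.03 FPKM. Each was lowest in the early EMP library. Assembly factors of the large subunit were split, with 12 of 24 higher in the late EMP library and a median of 0.01, which ran from -0.04 to 0.06 over the scalings tried. That count lies near the share of all rows. Among these Nop16 was at 4.34, 11.8 and 10.4 FPKM and Ppan at 9.64, 15.5 and 22.4 FPKM, while Pes1 was at 26.6, 16.7 and 14.7 FPKM.

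Assembly factors of the small subunit had 5 of 11 higher in the late EMP than in the early EMP library, with a median of -0.10, and 3 of 11 in the fetal HSC than in the early EMP library, with a median of -0.28. RNA polymerase I, which transcribes the large rRNA precursor, had 6 of 19 genes higher in the late EMP than in the early EMP library, with a median of -0.20, and 8 of 19 in the fetal HSC than in the early EMP library, with a median of -0.07. The shares over all rows at 1 FPKM or more were 49.5% and 41.8%, so 5 of 11 and 8 of 19 lie near them. The largest subunit of RNA polymerase I, Polr1a, was at 5.55, 3.26 and 2.25 FPKM, and the activator Ubtf at 16.2, 13.4 and 9.46 FPKM. Both were highest in the early EMP library. Taf1b, a subunit of the promoter selectivity factor of RNA polymerase I, went the other way, at 12.3, 20.1 and 19.5 FPKM.

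The ribosome of the mitochondrion served as a second set of ribosomal proteins. Of 76 genes measured, 33 were higher in the late EMP than in the early EMP library, with a median of -0.10, and 47 in the fetal HSC than in the early EMP library, with a median of 0.07. The shares over all rows at 1 FPKM or more were 49.5% and 41.8%. Summed, the 76 genes were at 1972, 1889 and 2012 FPKM, a range of a few percent. Mrpl33 was at 102, 90.8 and 112 FPKM and Mrpl23 at 87.0, 78.1 and 95.2 FPKM, both lowest in the late EMP library. Mrpl34 was an exception, at 8.51, 23.5 and 18.4 FPKM.

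Regulators of ribosome production were read last. The list of mTORC1 and Myc genes had 7 of 18 higher in the late EMP than in the early EMP library, with a median of -0.16. It mixes activators with inhibitors, so this count gives no direction for the pathway. The share over all rows at 1 FPKM or more was 49.5%. Myc, which drives transcription of many ribosome genes, was at 1.59, 10.6 and 5.26 FPKM, a log2 difference of 2.16 between late and early EMP, and Eif4ebp1, an mTORC1 target that holds back translation, at 37.4, 53.6 and 53.5 FPKM. Tsc1, an inhibitor of mTORC1, was at 9.23, 5.08 and 3.70 FPKM, and the kinase gene Mtor itself at 5.66, 3.98 and 2.90 FPKM. Both were highest in the early EMP library. Mxd1, of the same list, was at 10.25, 15.5 and 19.3 FPKM, lowest in the early EMP library like Myc. Larp1, which binds TOP mRNAs, was at 6.32, 4.75 and 3.35 FPKM. Among 8 genes of the p53 response, Trp53 was at 39.98, 61.7 and 48.9 FPKM and its target Cdkn1a at 215, 222 and 315 FPKM, and none of the 8 was 2-fold apart in any comparison.

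**Figure D4:**
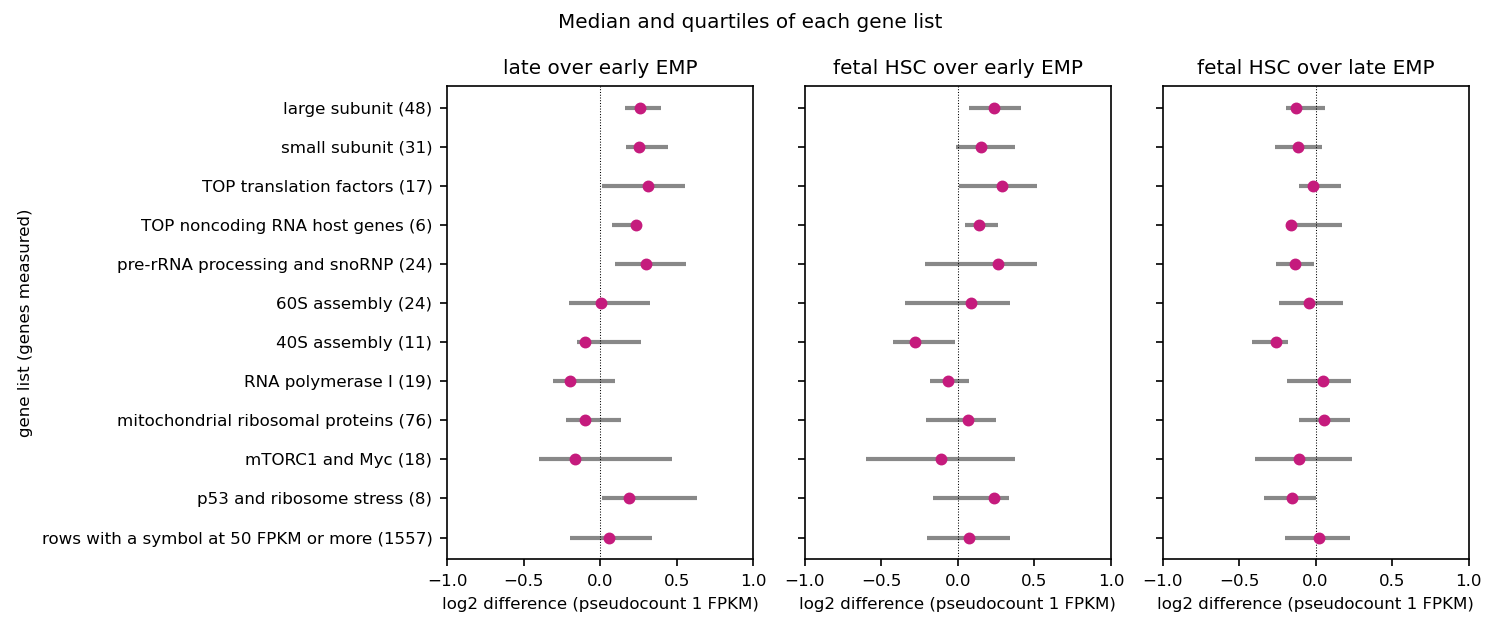
Median (point) and quartiles (bar) of the log2 difference (x axis, 1 FPKM added) for the ribosomal protein families, the related gene lists and all rows with a symbol at 50 FPKM or more, the members included, with the number of genes in brackets; 1 panel per comparison. Both subunits, the TOP lists and the pre-rRNA processing list have medians above 0 against early EMP, whereas RNA polymerase I and the 40S assembly list have medians below 0.

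Other features of the libraries moved alongside these values. The 8 mast cell markers, led by Cma1 and Tpsb2, summed to 212400, 179249 and 214659 FPKM with none 2-fold apart. The late EMP library, with the lowest sum, had the largest ribosomal protein share. The early EMP and fetal HSC sums lay close together, while their ribosomal protein shares were 2.05% and 2.35%. The proliferation genes Mki67 (2.75, 8.72 and 9.62 FPKM) and Top2a (4.33, 19.0 and 18.5 FPKM), chosen after earlier results were known, were lowest in the early EMP library, like most families. Of the 7 erythroid markers, 3 were at least 2-fold lower and 1 higher in the late EMP than in the early EMP library, with sums of 186, 18.5 and 15.2 FPKM; among these, Alas2 was listed at 0 in the early EMP and fetal HSC libraries, Ahsp in the first of these and Hbb-bt in the second. Of the 7 macrophage markers, 1 was lower and 1 higher in the late EMP than in the early EMP library and 4 were lower in the fetal HSC than in the early EMP library, with sums of 79.3, 54.8 and 22.9 FPKM and none at 0. Neutrophil markers summed to 2.60, 47.9 and 112 FPKM over 3 listed genes, melanocyte markers to 1.25, 13.4 and 39.7 FPKM over 4, and T cell and innate lymphoid markers to 26.3, 22.9 and 32.8 FPKM over 5; S100a8 and Cd3e were listed at 0 in the late EMP library and Mlana and Thy1 in the early EMP library. Markers of dendritic cells, keratinocytes and fibroblasts summed to at most 6.84 FPKM in any library. The part of these cells and of cell division in the ribosomal protein values was not tested.

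The depth of the libraries is not stated. From the steps between low values it was implied to be about 15.4, 15.7 and 17.3 M fragments, an imprecise estimate. At that depth the family with the fewest fragments, Rpl22, had about 40.3, 40.3 and 58.5, a counting error of up to 15.8%, and the median family had 1377, 1613 and 1639, with an error of 2.7% or less. The differences beyond 2-fold exceed that error, whereas the smallest ones named here do not: Rpl5, with a log2 difference of -0.11 between late and early EMP, had a counting error of about 11.1% and 11.6% in these libraries. Counting error covers neither variation between animals nor the division of reads between copies.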

How the data were processed

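Total RNA of sorted cells was extracted with TRIzol and sequenced on a HiSeq, per the labels' protocols. Values are FPKM per gene as the authors deposited them, per the file headers, in a single table with 1 column per library; the description of the early EMP sample ties it to the column headed ctrl. Per the submitters' processing notes the tools were RSEM and Bowtie2 and the builds GRCm38 and mm10, without versions. FPKM is a share, so a few abundant genes affect all values, and a listed 0 may be an estimate that failed.

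Copies were added to the parent of the same name (Rps4l to Rps4x). Differences are log2((FPKM + 1)/(FPKM + 1)), which understates those of low genes; rows at 1 FPKM or more in 1 library, 14412 of 20677, gave the background, and 2-fold was the size counted. No test was made with 1 library per group. All 94 gene identifiers matched RefSeq GRCm38.p6, and 16968 of 17612 symbols had a GENCODE M21 transcript, searched with BLAST. The steps were tested on simulated data. Depth was implied from genes with 1 transcript, where 74.3%, 75.5% and 67.3% of low values lay within 0.15 of a whole fragment (30.0% by chance for a step fixed beforehand; this one was fitted).

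Members and lists were chosen with earlier results of these data known. Named families were the 5 most abundant per subunit, the 4 highest and 4 lowest per comparison and subunit, those moved by 0.3 or more by their copies, the named paralogs, stalk proteins and Rps6, Rpsa, Rpl5, Rpl11, Rpl38 and Rps19; of each list, the 2 of highest level and at most 4 of largest difference at 5 FPKM or more. Not every gene this allows is named, some results that the rule would give are not reported here, and some other genes are given with their values. The versions were scipy 1.17.1, pandas 2.3.3, matplotlib 3.10.9 and numpy 2.4.6 under Python 3.11.15.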

Additional observations from a re-analysis of the deposited data

How the results depend on the processing

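No paired analysis was possible because each group has 1 library. Each subunit median, summed ratio and count of families 2-fold apart was recomputed under 12 alternatives: adding 0.1 or 5 FPKM to each value, filtering at 5 FPKM or not at all, 3 other scalings, copies not summed, parents with copies left out, and 3 chosen after the data were seen (sequence-matched rows summed too, transcripts of 600 bases or more, and families with no copy in the table). With no replicate spread, a shift under 0.1 on the log2 scale was taken as no change. Against early EMP every median and summed ratio kept its sign: for late EMP the large subunit median ran from 0.21 to 0.32 and the small from 0.20 to 0.34, and for fetal HSC from 0.20 to 0.32 and from 0.12 to 0.23. Between fetal HSC and late EMP, median-of-ratios scaling reversed the large subunit median to 0.01 (0.0074), the small to 0.02 (0.0193) and the log2 summed ratio to 0.07 (0.0652) from -0.07; the 2 other scalings did not. It moved the median of rows with a symbol by over 0.1, from -0.08 to 0.03. Without summing copies, 6, 12 and 6 rows were at least 2-fold apart, in place of 3, 5 and 2 families. Restricting to long transcripts left 1 and 3 families against early EMP, and so did leaving out families with a copy. The first dropped Rpl35a and Rpl30, with transcripts of 491 and 570 bases. The second dropped Rpl29 and Rpl30. Depth limits the small differences of low families such as Rpl5, Rps15a and Rpl22, and single rows with a near-identical copy remain uncertain.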
